A study of Homo sapiens with 16 samples.

Results

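HPB-ALL is a human T-cell acute lymphoblastic leukaemia (T-ALL) line, and the experiment described here targeted a long non-coding RNA (lncRNA) in it with CRISPR guides. Its members are the 4 HPB-ALL libraries of a series of 16, taken by their column names: 2 controls and 2 targeted libraries. The series asked how the transcriptome of T-ALL lines changes when the lncRNA lnrCXCR4 is perturbed. The other libraries came from CUTLL1 and KOPTK1, treated with guides or with antisense oligonucleotides, and HPB-ALL received guides only. Control cells carried lentivirus with CRISPR components and a non-targeting guide, and targeted cells carried lentivirus with CRISPR components and a guide to the lncRNA. Both groups grew in RPMI medium with serum, and a column kit for RNA and a strand-specific library kit were used for all 4 samples. The sources used here do not give the CRISPR enzyme, the guide sequences, the time after infection or the RNA selection. The titles number the targeted libraries as guides 1 and 2 while the descriptions number them as replicates, so whether they carry different guides is not settled by the labels. They were used as replicates. The labels name no separate cultures, so a p-value here weighs a difference against the spread of these libraries alone, and that spread may be technical.

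T-ALL cells are immature T cells halted during development in the thymus, and many lines keep the surface proteins of cortical thymocytes, such as the CD1 molecules, together with the recombination enzymes that assemble the T-cell receptor. Their growth commonly depends on NOTCH1, a receptor whose cleaved part acts as a transcription factor, and on its target MYC, a transcription factor that drives ribosome production. CXCR4 is the receptor for the chemokine CXCL12 and holds lymphoid leukaemia cells in the marrow.

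The controls expressed the genes of the labelled cell type: CD3E was at 32022 and 31562 normalised read counts, CD2 at 4196 and 4031 and CD1A at 17704 and 17212. TLX3, a homeobox gene that is switched on in a subset of T-ALL, was at 8753 and 7768 in the HPB-ALL controls and at no more than 5.87 in the controls of the other lines. Many defining genes of other blood lineages were at or near 0 in all 4 libraries. CD33, HBA1, HBA2, HBB and ALAS2 were at 0, and MS4A1, MPO and CSF1R did not exceed 0.952. Others were expressed in the controls. The B-lineage genes CD79A and CD79B were at 333 and 310 and at 157 and 187. The cytotoxic genes NKG7 and PRF1 were at 745 and 721 and at 173 and 171. The lncRNA itself has no entry under its name among the 57820 genes of the table, so its level was not analysed here and the targeted libraries could not be checked by their target. The libraries held 34547469 and 47596230 recovered reads in the controls and 57031151 and 58929718 in the targeted group. The groups stood far apart and their libraries close together: over the genes with enough reads, the mean chi-square per gene was 2.57 between the controls and 5.34 between the targeted libraries, where counting noise alone gives about 1, and 263 to 305 across the groups. Mitochondrial genes took 1.84% of the reads in both controls and 2.52% and 2.50% in the targeted libraries. The part of this shift in the results below was not tested. The samples are bulk RNA, in which fewer cells of a kind and less RNA per cell cannot be told apart.

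Most of the measured transcriptome differed between the groups. Of 13453 genes with a mean of 20 normalised counts or more, 5006 (37.2%) were higher and 5476 (40.7%) were lower in the targeted libraries at an adjusted p below 0.05 in limma, together 77.9% of the genes tested. A call by itself therefore says little, and the size of the change and the share of a list that moved one way are given against this background. Folds were unequal in the 2 directions: 744 genes (5.53%) rose more than 2-fold and 1807 (13.4%) fell more than 2-fold, and past 10-fold the counts were 21 and 208. The median log2 fold change of all genes tested was -0.03. Quantile scaling moved that median to 0.09, so changes of this size depend on the scaling. In 88.0% of the genes the 2 groups did not overlap.

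**Figure D1:**
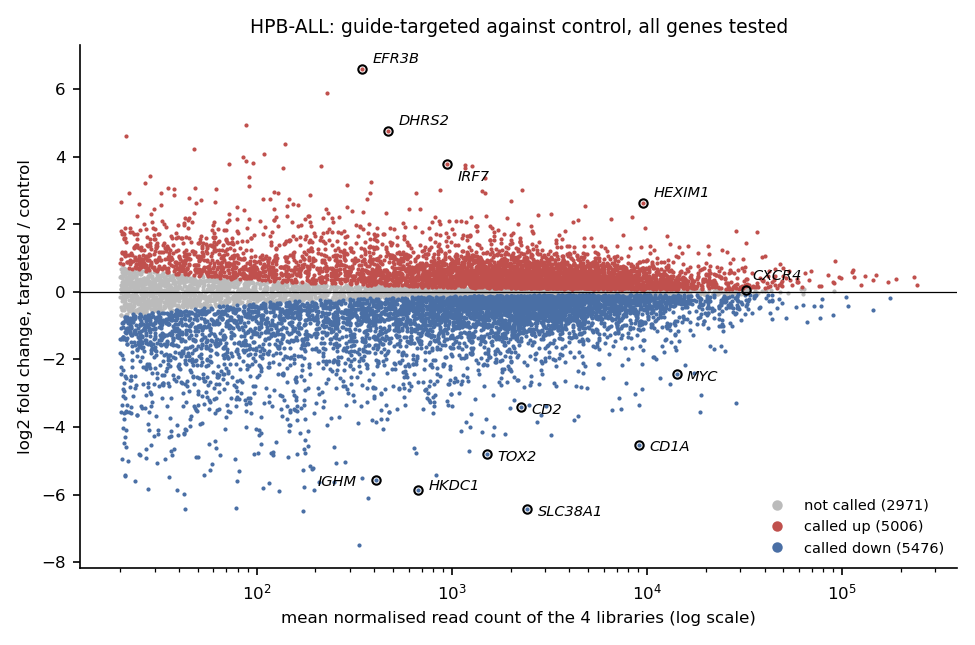
Log2 fold change of targeted against control HPB-ALL libraries (vertical axis) against the mean normalised read count of the 4 libraries (horizontal, log scale), 1 point per gene tested, coloured by call. The points below 0 reach further than those above it: 208 genes fell more than 10-fold and 21 rose as far, while CXCR4 lies at 0.04.

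The genes that rose most came from unrelated families, and most of the 12 named by the fixed rule were close to silent in the controls. EFR3B, a scaffold of the phosphatidylinositol 4-kinase at the plasma membrane, was at 6.61 and 5.71 in the controls and 689 and 687 when targeted. Its log2 fold change was 6.59 (SE 0.181; limma, adjusted p = 4.35e-24), and the targeted libraries agreed closely while both controls lay near the floor. DHRS2, a short-chain dehydrogenase/reductase, was at 26.4 and 40.0 in the controls and 948 and 874 when targeted, a log2 fold change of 4.76. DACT3, of a family of Wnt pathway regulators, was at 9.25 and 15.2 in the controls and 271 and 262 when targeted, a log2 fold change of 4.38. In both genes every targeted value lay far above every control, and the rule chose them for that. IRF7, the transcription factor that amplifies the interferon response, was at 133 and 121 in the controls and 1792 and 1726 when targeted, and rose by 3.78 on the log2 scale (SE 0.0818; limma, adjusted p = 1.04e-26). ZCCHC24 rose from 167 and 150.5 to 2188 and 2150.0, and FAM222A from 186 and 169 to 2486 and 2227. The remaining 6 were low in the controls, and in each the targeted libraries lay at 124 or higher. C14orf37 rose from 2.64 and 7.62 to 169.9 and 173 and PDZD2 from 11.9 and 10.5 to 191 and 221. ENPP2, which encodes the secreted enzyme autotaxin, rose from 7.93 and 10.5 to 164 and 159.9 and the thyroglobulin gene TG from 7.93 and 13.3 to 165 and 165. THEMIS2, an adaptor of B cells and macrophages, rose from 14.5 and 9.52 to 172 and 186 and REEP6 from 11.9 and 6.67 to 148 and 124. Their log2 fold changes ran from 3.78 for REEP6 to 4.94 for C14orf37. Values this near 0 in the controls make the fold depend on the pseudocount of 1.

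SLC38A1, a sodium-coupled importer of glutamine and other neutral amino acids, fell the furthest among the genes the rule names. It was at 4804 and 4818 in the controls and 56.6 and 52.3 when targeted, a log2 fold change of -6.44 (SE 0.0783; limma, adjusted p = 1.00e-32). The 2 controls differed from each other by less than 20 counts, and so did the 2 targeted libraries. HKDC1, a hexokinase-like gene, was at 1287 and 1349 in the controls and 22.3 and 20.8 when targeted, a log2 fold change of -5.87. LRRC14B was at 756 and 712 in the controls and 7.18 and 13.1 when targeted, a log2 fold change of -6.10. GPR56, an adhesion receptor, went from 400.4 and 417 to 9.57 and 5.38, and AARD from 485 and 498 to 8.78 and 9.23. In the other 7 the controls were between 143 and 414 counts and the targeted libraries at 9.57 or lower. These were SALL3, a zinc-finger transcription factor, INHBE, an inhibin subunit, ATP9A, a lipid flippase, RGL4, CCR12P, a chemokine receptor pseudogene, TBC1D16, a Rab GTPase activator, and APBA2, a neuronal adaptor. Their log2 fold changes ran from -6.41 for SALL3 to -5.59 for APBA2. No targeted value of these 12 genes came within 10-fold of a control value. The rule chose them for the largest falls without overlap, so this gap follows from the choice.

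The genes of T-cell identity fell together, and by far more than the typical gene. All 29 tested members of the list of the T-cell receptor complex and its signalling fell, 22 of them more than 2-fold. The median log2 fold change was -2.01 beside -0.03 for all genes. Over all genes tested 40.7% fell, and 13.4% fell more than 2-fold. The deepest fall in the list was -5.09. LCK, the kinase that starts receptor signalling, was at 16548 and 16591 in the controls and 1635 and 1629 when targeted, a log2 fold change of -3.34 (SE 0.0408; limma, adjusted p = 1.00e-32). GRAP2, an adaptor downstream of the receptor, was at 6222 and 6055 in the controls and 335 and 319 when targeted and fell by 4.23 on the log2 scale. The costimulatory receptor CD28 was at 19021 and 18877 in the controls and 5381 and 5586 when targeted. CD5, a signal-dampening receptor, was at 7606 and 7586 in the controls and 1129.7 and 1080.4 when targeted. CD6, of the same kind, was at 8851 and 8551 in the controls and 1270.1 and 1130.4 when targeted. In each of these genes the targeted pair lay below the controls without overlap, and 88.0% of all genes tested had no overlap. The chains of the receptor fell less: CD3E was at 32022 and 31562 in the controls and 10625 and 10156 when targeted, and CD3G at 14754 and 14706 in the controls and 11997 and 12542 when targeted. The adhesion molecule CD2 was at 4196 and 4031 in the controls and 412 and 354 when targeted, a log2 fold change of -3.42.

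Markers of the cortical thymocyte stage fell to a similar degree, with 15 of 17 tested members lower, 1 higher (ELOVL4) and a median of -2.06. CD1A, which presents lipids and defines the cortical stage, was at 17704 and 17212 in the controls and 774 and 732 when targeted, a log2 fold change of -4.53 (SE 0.0451; limma, adjusted p = 1.55e-34). CD1B and CD1E, its neighbours in the same family, were at 34535 and 34710.2 and 51827 and 51721 in the controls and at 2986 and 2904 and 5392 and 5283 when targeted. DNTT, the terminal transferase that adds bases to receptor joins, was at 8004 and 8384 in the controls and 635 and 633 when targeted, and RAG1, part of the recombinase, at 4956 and 4819 in the controls and 876 and 916 when targeted. CD8A, a coreceptor of the T-cell receptor, was at 14745 and 14502 in the controls and 4544 and 4378 when targeted. CD4, the other coreceptor, was the member not called, at 28258 and 28149.5 in the controls and 27582 and 27082 when targeted (limma, adjusted p = 0.234). Its groups lay within 5% of each other, so the 2 coreceptors parted in the targeted libraries.

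**Figure D2:**
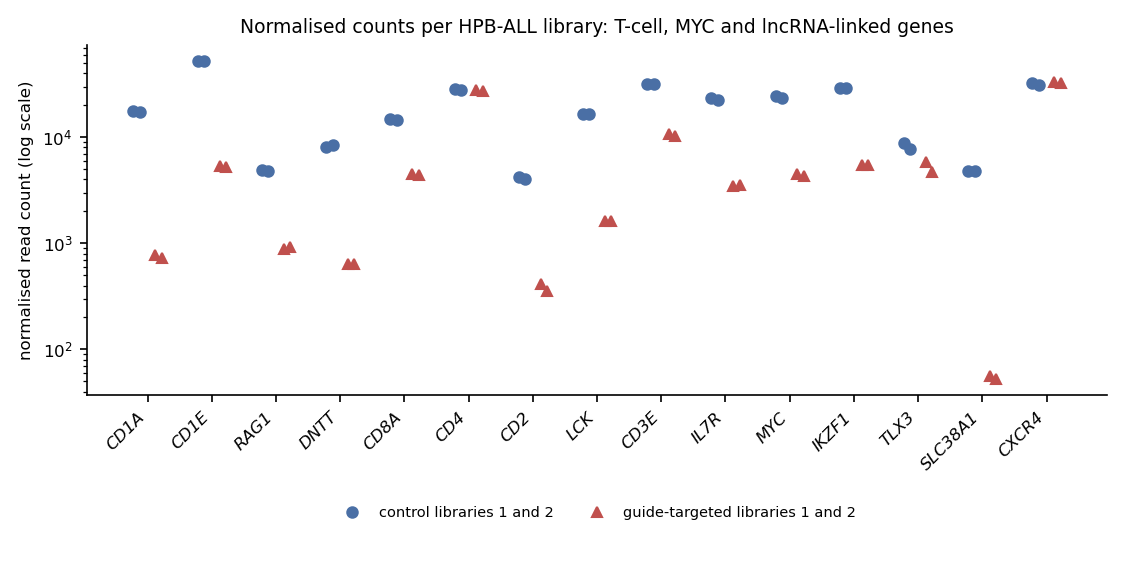
Normalised read count (vertical axis, log scale) of 15 T-cell, MYC and lncRNA-linked genes in each HPB-ALL library; circles are the 2 controls and triangles the 2 targeted libraries. Within each group the points nearly coincide except for TLX3, and the gap between groups is widest for SLC38A1, at 4804 and 4818 in the controls and 56.6 and 52.3 when targeted, and closes for CD4 and CXCR4.

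Transcription factors of the T lineage fell in 29 of 33 tested members, with 2 higher and a median of -0.85. The 2 that rose were ID2 and NFATC3, and the call of NFATC3 was lost without control library 1 (limma, adjusted p = 0.0681). IKZF1, the lymphoid regulator Ikaros, was at 29343 and 29112 in the controls and 5519 and 5520.3 when targeted, and its relative IKZF2 at 15757 and 14960.4 in the controls and 3289 and 3666 when targeted. TOX2, a high-mobility-group factor, fell furthest in the list, from 2926 and 2899.9 to 99.7 and 106 (-4.81; limma, adjusted p = 4.69e-30). BCL11B, which commits progenitors to the T lineage, was at 9932 and 10198 in the controls and 3317 and 3315 when targeted. The other 2 were not called. The list named for T-ALL oncogene transcription factors had 19 members. It shares BCL11B and MYB with the T-lineage list, so their falls count in both, and not every member need act as an oncogene. Of the 19, 6 were expressed enough to be tested and 5 of them were lower. LYL1 went from 445 and 418 to 86.2 and 73.8, HOXA5 from 174 and 171 to 51.1 and 24.6, MYB from 18062 and 17928 to 9545 and 9477, and BCL11B as given. The fifth, TLX3, was at 8753 and 7768 in the controls and 5898 and 4718 when targeted, a log2 fold change of -0.64 (SE 0.0619; limma, adjusted p = 8.57e-11). Its libraries spread more than those of other abundant genes, and the call was lost when the moderation was made robust (adjusted p = 0.0635 in limma) or when all 16 libraries shared 1 estimate of the spread (adjusted p = 0.480). The sixth factor was not called.

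In the list of NOTCH1, its pathway and its targets, 19 of 25 tested members fell and 5 rose, with a median of -0.68. Among all genes tested 40.7% fell and 37.2% rose. The receptor gene NOTCH1 itself was at 34707 and 31801 in the controls and 40624 and 39041 when targeted. It rose by 0.26 on the log2 scale (SE 0.0387; limma, adjusted p = 4.30e-07). NOTCH2, NOTCH3, the coactivator MAML1 and HES4 rose too. No other member rose, and most targets in the list fell. IL7R, a NOTCH1 target that transmits the interleukin 7 growth signal, was at 23250.0 and 22519 in the controls and 3441 and 3518 when targeted and fell by 2.72. MYC was at 24338 and 23602 in the controls and 4477 and 4343 when targeted, a log2 fold change of -2.44 (SE 0.0381; limma, adjusted p = 3.91e-30). Of the other 9 tested genes of the MYC and MAX network 5 were higher, 2 lower and 2 not called, with a median of 0.10. The MYC antagonists MXD4, MXD1 and MXI1, which compete with MYC for MAX, were higher: MXD4 went from 2282 and 2186 to 6027 and 5409, MXD1 from 2516 and 2488 to 4206 and 4401 and MXI1 from 5462 and 5346 to 7764 and 7898. MNT, another antagonist that pairs with MAX, fell from 1595 and 1550.4 to 1064 and 1061.

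All 30 genes for nucleolar ribosome biogenesis fell, 14 of them more than 2-fold, and the median was -0.88. RRS1, an assembly factor of the large subunit, was at 2865 and 2849 in the controls and 692 and 681 when targeted, a log2 fold change of -2.06 (SE 0.0552; limma, adjusted p = 2.59e-24). MRTO4, another assembly factor, was at 5273 and 5372 in the controls and 2105 and 1912 when targeted. POLR1B, a subunit of RNA polymerase I, fell from 6080.1 and 5854 to 2298 and 2438, and UTP20, a processing factor of the small subunit, from 4222 and 4109 to 1561 and 1580.2. The 2 groups were apart in each, as in 88.0% of all genes tested. The ribosomal protein genes did not follow: 21 of 36 were higher, 3 lower and 12 not called, and the median was 0.11. Among all genes tested 37.2% were higher and 40.7% lower. RPLP1 was at 35507 and 34316 in the controls and 49776 and 46434 when targeted and RPLP0 at 47126 and 48063 in the controls and 61382 and 59429.8 when targeted, while RPL8 did not pass the test. The promoters of the biogenesis genes were searched in RefSeq (GRCh38.p14) for CACGTG, the core E-box that MYC with MAX can bind, which reads the same on both strands, in the 250 bases before the start. It was present in 2 of 25 matched promoters (8.0%), SRM and UTP20, beside 6.35% of 35114 promoters searched alike, so its share in the list was close to that of promoters at large. The search covers only these letters in this window.

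CXCR4, the gene that lends the lncRNA its name, was at 32379 and 31151 in the controls and 33366 and 32078 when targeted, a log2 fold change of 0.04 (SE 0.0359) that did not pass the test (limma, adjusted p = 0.277). Of the 11 genes flanking it on its chromosome that could be tested, 6 rose and 4 fell, none by 2-fold, with a median of 0.15. Over all genes tested 37.2% rose and 40.7% fell. MCM6, a subunit of the replicative helicase, was at 19443 and 19806 in the controls and 26998 and 27194 when targeted, and DARS, the aspartyl-tRNA synthetase, at 8238 and 8426 in the controls and 5396 and 5363 when targeted. MGAT5, a Golgi glycosyltransferase, was higher by 0.57 on the log2 scale, RAB3GAP1 by 0.36, UBXN4 by 0.22 and R3HDM1 by 0.15. SPOPL fell from 474 and 494 to 255 and 283, ZRANB3 from 1193 and 1213 to 853 and 847 and the lactase gene LCT from 179.7 and 189.5 to 136 and 131. None of these neighbours moved as far as the genes that led either direction. TMEM163 passed the test at low counts, with 43.6 and 39.0 and 72.6 and 51.5, and CCNT2 did not pass it. The call of LCT was lost under quantile scaling, at -0.13 (limma, adjusted p = 0.316), and that of TMEM163 without targeted library 1, at 0.31 (limma, adjusted p = 0.303), or without control library 2, at 0.48 (limma, adjusted p = 0.0644).

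Of the other 18 tested genes of homing and adhesion 16 fell, 13 of them more than 2-fold, with a median of -1.44, and the integrin gene ITGB1 rose. CCR4, a chemokine receptor, was at 844 and 827 in the controls and 51.1 and 47.7 when targeted, a log2 fold change of -4.05 (SE 0.112; limma, adjusted p = 4.98e-24). ITGA4, the alpha chain of the integrin VLA-4, was at 20129 and 19729.8 in the controls and 3316 and 3476 when targeted, and ITGAL, the alpha chain of LFA-1, at 941 and 825 in the controls and 77.4 and 69.2 when targeted. SELPLG, the selectin ligand PSGL-1, was at 1344 and 1317 in the controls and 201 and 182 when targeted. The targeted libraries of these receptors and integrins lay several-fold below the controls, and those of CXCR4 beside them. In the cytokine receptor and JAK-STAT5 list 8 genes rose and 8 fell of 18, beside 37.2% and 40.7% of all genes tested. The median was 0.01. IL2RG, the common gamma chain, fell from 19654 and 18844 to 11797 and 11059.8, while JAK1 rose from 9807 and 9579.7 to 15494 and 15609 and IL10RA from 1226 and 1209 to 2362 and 2325. JAK3 was not called.

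HEXIM1 rose further than any other gene of the list of BET proteins and regulators of P-TEFb, the kinase that releases paused RNA polymerase II. HEXIM1 protein, bound to the 7SK RNA, holds P-TEFb inactive. The gene was at 2562 and 2716 in the controls and 16716 and 16037 when targeted, a log2 fold change of 2.63 (SE 0.0416; limma, adjusted p = 4.69e-30). The BET gene BRD2 was at 26157 and 25258 in the controls and 52458 and 52138 when targeted, and CDK9, the kinase of P-TEFb, at 3984 and 3799.9 in the controls and 6913 and 6553 when targeted. ELL2, an elongation factor, was at 1874 and 1897 in the controls and 3989 and 4080.1 when targeted. MEPCE, which caps 7SK, rose from 6484 and 6156 to 11000.4 and 10306, whereas HEXIM2 fell from 357 and 437 to 219 and 185. In all, 10 of 17 members rose and 3 fell, beside 37.2% and 40.7% of all genes tested, with a median of 0.31.

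The replication-dependent histone genes had the highest median of any list, 1.77: 17 of the 19 tested rose, 14 of them more than 2-fold and 2 were not called. HIST1H2BD was at 68.7 and 69.5 in the controls and 391 and 376 when targeted, a log2 fold change of 2.45 (SE 0.122; limma, adjusted p = 1.55e-17). HIST2H2BE was at 85.9 and 67.6 in the controls and 375 and 397 when targeted, HIST1H2AC at 109.7 and 92.4 in the controls and 365 and 374 when targeted and HIST1H2BJ at 27.8 and 19.0 in the controls and 138 and 133 when targeted. The targeted libraries of these 4 genes lay at least 3-fold above both controls. Another 12 genes of the list were too low to test, the levels were low throughout, and near-identical histone genes can share reads, so the members are not independent measurements. Transcripts of this class normally end in a stem-loop and lack a poly(A) tail, and how the libraries selected RNA is not given. The promoters of 4 of the genes that rose are shown because they share features that the counts did not use. They are the 250 bases before the RefSeq start in GRCh38.p14, with CCAAT or its reverse complement ATTGG, and TATAAA or its reverse complement TTTATA, in capitals. HIST1H2BD lies at chr6:26157871-26158120 on the plus strand, HIST1H2AC at chr6:26123922-26124171 on the plus strand, HIST1H2BJ at chr6:27132796-27133045 on the minus strand and HIST2H2BE at chr1:149886683-149886932 on the minus strand.
HIST1H2BD: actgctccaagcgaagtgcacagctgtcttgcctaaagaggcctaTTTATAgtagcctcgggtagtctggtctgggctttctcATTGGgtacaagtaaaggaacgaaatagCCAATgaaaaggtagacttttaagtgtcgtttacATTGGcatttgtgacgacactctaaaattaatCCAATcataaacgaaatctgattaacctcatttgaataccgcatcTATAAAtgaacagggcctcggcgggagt
HIST1H2AC: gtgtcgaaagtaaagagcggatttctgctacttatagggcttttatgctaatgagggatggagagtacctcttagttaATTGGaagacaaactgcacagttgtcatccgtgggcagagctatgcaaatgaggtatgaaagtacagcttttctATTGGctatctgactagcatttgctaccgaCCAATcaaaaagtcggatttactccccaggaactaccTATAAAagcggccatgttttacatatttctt
HIST1H2BJ: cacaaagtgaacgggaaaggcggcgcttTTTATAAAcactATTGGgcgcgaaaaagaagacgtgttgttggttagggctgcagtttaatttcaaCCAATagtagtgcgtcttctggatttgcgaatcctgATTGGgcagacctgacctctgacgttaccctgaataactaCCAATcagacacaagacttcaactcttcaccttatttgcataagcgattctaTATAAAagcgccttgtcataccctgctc
HIST2H2BE: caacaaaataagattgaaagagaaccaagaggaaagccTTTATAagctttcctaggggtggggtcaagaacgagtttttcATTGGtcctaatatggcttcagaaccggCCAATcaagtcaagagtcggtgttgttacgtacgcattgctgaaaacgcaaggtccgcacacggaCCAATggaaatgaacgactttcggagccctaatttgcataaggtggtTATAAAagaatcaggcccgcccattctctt

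Each of these sequences holds several CCAAT matches in either orientation, and a TATAAA on the gene's own strand that begins 28 bases before the start in HIST1H2BD and HIST1H2BJ, 30 in HIST2H2BE and 31 in HIST1H2AC. CCAAT was present on either strand in 14 of the 16 histone promoters that could be matched (87.5%), beside 32.0% of the 35114 promoters searched, and TATAAA in 11 of 16 (68.8%) beside 10.7%. HIST1H2BJ and HIST1H2AG are divergent neighbours and their windows overlap, as do those of HIST2H2BE and HIST2H2AC, so the 16 promoters are fewer than 16 separate stretches. Both motifs are known features of this gene family. A match is a description of the sequence and not of binding.

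**Figure D3:**
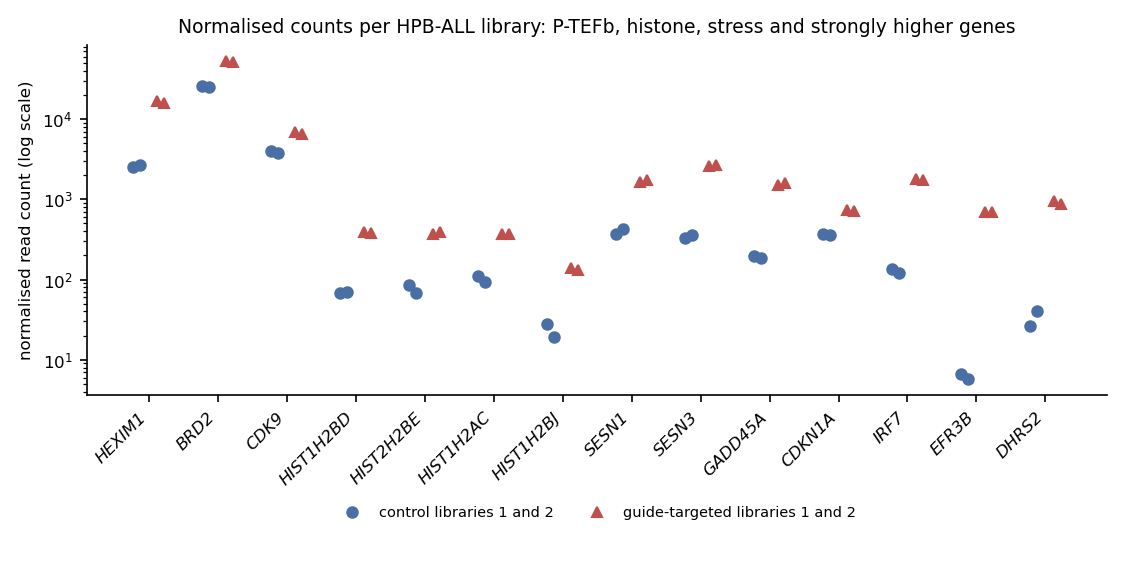
Normalised read count (vertical axis, log scale) of 14 genes of the P-TEFb, histone, stress and strongly higher groups in each HPB-ALL library; circles are the 2 controls and triangles the 2 targeted libraries. HEXIM1 rose from 2562 and 2716 to 16716 and 16037, and EFR3B from near the floor.

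Genes of the cell division machinery were modestly higher or mixed, where 37.2% of all genes tested were higher and 40.7% lower. Of 30 mitosis genes 20 rose and 6 fell, with a median of 0.27 and none past 2-fold: ASPM, a spindle pole protein, went from 15447 and 14583 to 23435 and 25122, and the checkpoint kinase BUB1 from 11764 and 12031 to 17598 and 17949.6. The other 4 were not called. Of 30 DNA replication genes 16 rose and 10 fell, with a median of 0.11. CLSPN, the checkpoint adaptor claspin, was at 5237 and 5082 in the controls and 10630.2 and 10995 when targeted. RRM2, a subunit of ribonucleotide reductase, rose from 18691 and 18591 to 36126 and 36900.4, and the origin licensing factor CDC6 from 5151 and 5126 to 8947 and 8979.8. The list of cyclins of the G1 phase, their kinases and inhibitors had 7 higher and 6 lower of 16, and a median of -0.02, whose sign changed with the scaling. CCND3, a D-type cyclin, fell from 31414 and 30773 to 16131 and 14874, and its partner CDK6 from 112147 and 109283 to 66412 and 71503, while CDK2 rose from 8627 and 8684 to 13971 and 13535.

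Among p53 targets 15 of 26 rose and 9 fell, with a median of 0.42. Over all genes tested 37.2% rose and 40.7% fell, which is the background of the next lists too. GADD45A, a stress-inducible growth arrest gene, was at 196 and 186 in the controls and 1508 and 1580.2 when targeted, a log2 fold change of 3.01 (SE 0.0766; limma, adjusted p = 6.59e-25). PLK2 went from 91.2 and 105 to 483 and 546, and CDKN1A, the cell cycle inhibitor p21, from 374 and 362 to 741 and 716. AEN, a nuclease linked to apoptosis, fell from 4167 and 4199 to 1198 and 1162. FOXO-linked and quiescence genes rose in 16 of 24 members and fell in 2, with a median of 0.44. SESN3, which restrains the growth kinase mTORC1, was at 329 and 354 in the controls and 2592 and 2651 when targeted, a log2 fold change of 2.94 (limma, adjusted p = 1.17e-26). Its relative SESN1 was at 367 and 424 in the controls and 1649 and 1766 when targeted. TOB1, an antiproliferative gene, went from 833 and 897 to 2757 and 2906, and YPEL5 from 1089 and 1170.4 to 2804 and 2728. The other 6 were not called. The BCL2 family was split, with 6 higher and 7 lower of 15. BCL2, which blocks apoptosis, fell from 3035 and 2961 to 878 and 921 and BCL2L1 from 3987 and 3897 to 2559 and 2483, while MCL1, of the same function, rose from 12316 and 12344 to 20492 and 20982. Its median of -0.07 became 0.24 under quantile scaling.

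Of 16 amino acid and nutrient transporter genes 12 were lower, 3 higher and 1 not called, with a median of -0.55. Over all genes tested 40.7% were lower and 37.2% higher, which is the background of the next lists too. Besides SLC38A1, SLC7A11, which imports cystine, was at 1931 and 1956 in the controls and 240.1 and 246 when targeted. SLC7A1, which imports arginine and lysine, fell from 18389.7 and 17705 to 6716 and 6592, and SLC43A1, which carries branched-chain amino acids, from 2358 and 2343 to 524 and 533. The groups were apart in each, as in 88.0% of all genes tested. The genes of the ATF4 stress response and serine synthesis fell in 14 of 20 and rose in 2, with a median of -0.61. The pseudokinase gene TRIB3 went from 5722 and 5856 to 875 and 892, ATF4 itself from 18252 and 18008 to 11153 and 10662 and SHMT2, the mitochondrial serine hydroxymethyltransferase, from 12345 and 12392 to 6554 and 6232. Cholesterol synthesis genes moved the other way in 16 of 24 members, with 7 lower and a median of 0.22, led by TM7SF2, a sterol reductase, at 555 and 534 in the controls and 2187 and 2019 when targeted. Fatty acid synthesis genes fell in 7 of 12 and rose in 3, with a median of -0.34. ELOVL6, which elongates fatty acids, was at 4176 and 4070.3 in the controls and 562 and 599.8 when targeted, and the desaturase gene FADS1 at 2578 and 2592 in the controls and 1146 and 1094 when targeted. ACSL1, which activates fatty acids, rose from 2122 and 2122 to 3789 and 3854. Glycolysis and hypoxia genes were split, with 10 higher and 12 lower of 24. NDRG1, a hypoxia-responsive gene, was at 139 and 167 in the controls and 799 and 732 when targeted, and the phosphofructokinase gene PFKP fell from 6186 and 6237 to 3484 and 3379.5.

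Of 29 type I interferon genes 20 fell and 6 rose, with a median of -0.76, although IRF7 rose as given above. Over all genes tested 40.7% fell and 37.2% rose, which is the background of the next lists too. OAS3, a sensor of double-stranded RNA, was at 1805 and 1734 in the controls and 219 and 215 when targeted, a log2 fold change of -3.02 (limma, adjusted p = 1.45e-25). IFIT3 was at 796 and 811 in the controls and 113 and 106 when targeted and the antiviral GTPase gene MX2 at 5878 and 5886 in the controls and 2096 and 2126 when targeted. IFIT2 was not called. The class I HLA and antigen presentation list fell in 8 of 14 and rose in 3, with a median of -0.47. PSMB8, a subunit of the immunoproteasome, went from 8109 and 8226 to 2727 and 2533 and the trimming peptidase gene ERAP1 from 9699.6 and 9133 to 4509 and 4657, while the class I gene HLA-B was not called. MAPK feedback and immediate early genes fell in 12 of 21 and rose in 6, with a median of -0.19, JUND rising from 4859 and 4531 to 12727 and 10695 and the phosphatase gene DUSP2 falling from 3125 and 3211 to 1472 and 1303.

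The mitochondrially encoded genes rose in all 15 members, with a median of 0.41. MT-RNR2, a ribosomal RNA, was at 63478 and 63602 in the controls and 118398 and 121023 when targeted, and MT-CYB, a subunit of complex III, at 82378 and 81142 in the controls and 112496 and 110214 when targeted. The nuclear genes of oxidative phosphorylation were split, with 14 higher and 10 lower of 28 and a median of 0.04. Chromatin enzymes were likewise split, with 11 higher and 10 lower of 26 and a median of 0.04. Among all genes tested 37.2% were higher and 40.7% lower. TET1, a demethylase of DNA, fell from 1158 and 1120.0 to 408 and 409.9 and the methyltransferase gene DNMT3A from 5764 and 5626 to 3191 and 3097, while the deacetylase gene SIRT1 rose from 3598 and 3623 to 7103 and 7412. Heat shock chaperones were at 8 higher and 8 lower of 17, with a median of 0.04, and chaperones of the endoplasmic reticulum at 6 higher and 8 lower of 20, with a median of -0.03 whose sign changed with the scaling.

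Few genes of other lineages were expressed enough to test, and those that were mostly fell. All 4 tested B-lineage markers of 11 were lower, and their summed level was 11646 and 11417 in the controls and 2065 and 1790.1 when targeted. Most of that sum was IGLL1, a surrogate light chain that immature lymphoid cells can also make, at 10349.8 and 10071 in the controls and 1879 and 1625 when targeted. IGHM, the immunoglobulin mu chain, was at 777 and 822 in the controls and 18.3 and 13.8 when targeted, and CD79B at 157 and 187 in the controls and 22.3 and 25.4 when targeted. Of 10 cytotoxic markers 4 were tested and 3 fell, among them CST7, at 1439 and 1392 in the controls and 227 and 196 when targeted, and the list's sum went from 2428 and 2336 to 492 and 447. Myeloid markers had 1 lower of 2 tested, AIF1, with a sum of 4132 and 4384 in the controls and 2706 and 2604 when targeted. Of the epithelial, fibroblast and endothelial list, VIM, which leukaemia cells also express, rose, and CDH1 and KRT8 fell, CDH1 from 204 and 170.5 to 7.18 and 4.61. EPOR was the 1 tested gene of the erythroid list and rose from 26.4 and 24.8 to 53.5 and 56.1. The part of these shifts in the other results was not tested.

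**Figure D4:**
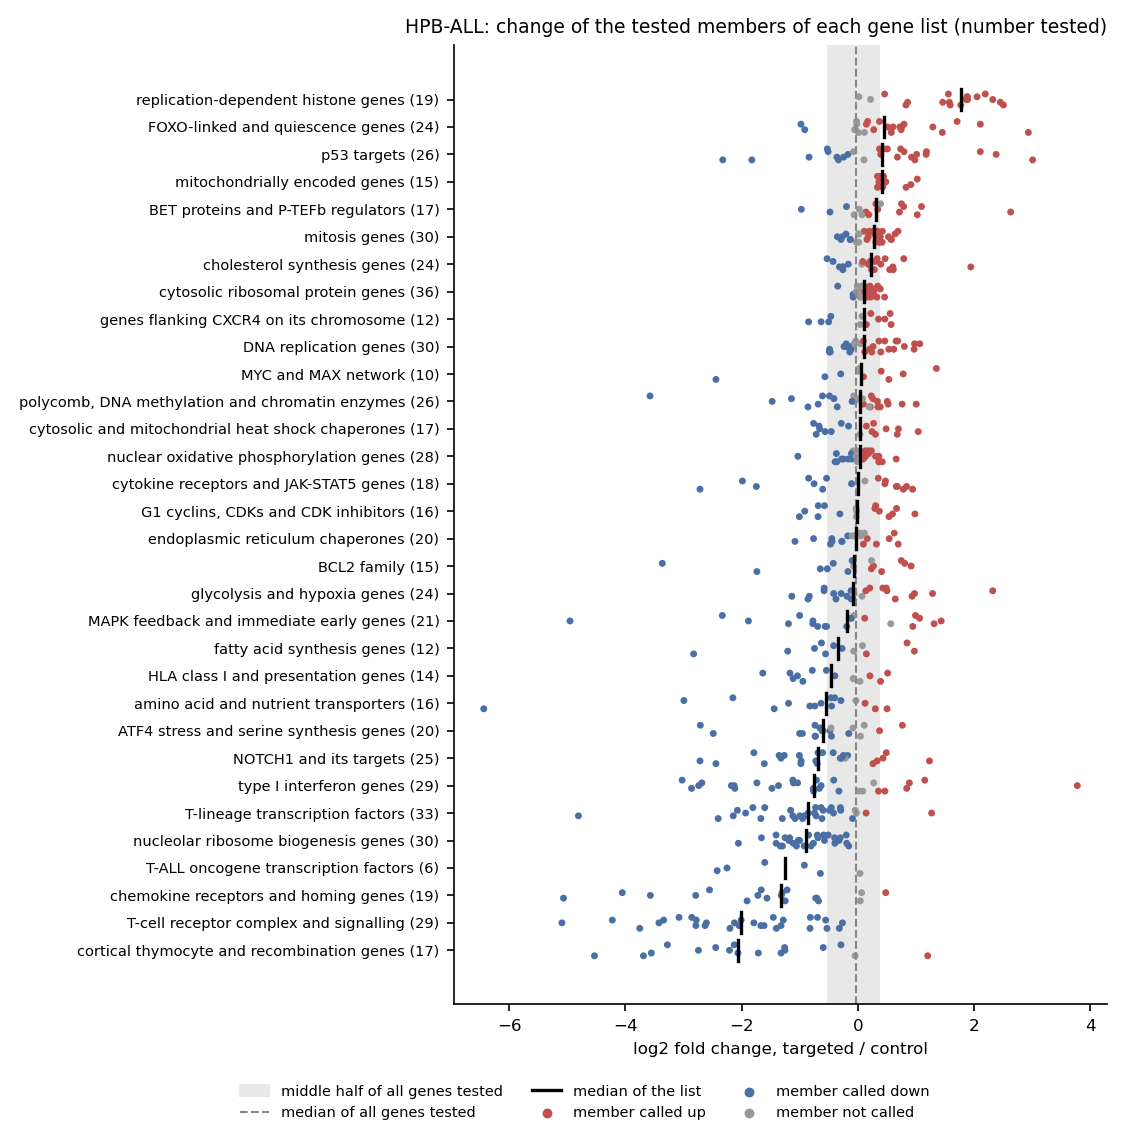
Log2 fold change of targeted against control libraries (horizontal axis) for every tested member of each list with at least 5 tested members; points are genes coloured by call, black bars are list medians, the grey band holds the middle 50% of all genes tested and the dashed line is their median, -0.03. The lists at the bottom, T-cell receptor and cortical thymocyte genes at medians of -2.01 and -2.06, lie mostly left of the band. The histone genes, at a median of 1.77, lie mostly right of it.

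Whether HPB-ALL responded as the other lines did was asked with the difference between its log2 fold change and the mean of those of CUTLL1 and KOPTK1, with guides, tested against a minimum of 1.5-fold. Of 14069 genes tested 449 differed (3.19%), 176 with a higher and 273 with a lower value in HPB-ALL. In 191 of them the 2 values did not share a sign. That count includes other-line means of 0, as for IGHM, or near 0, as for SALL3 at 0.15, so it is not a count of opposite responses. CUTLL1 and KOPTK1 each had a single guide control, which was assumed to vary like the replicated groups. SLC38A1 had the smallest p of all. In CUTLL1 it was at 24809 in the control and 14822 and 15337 when targeted, and in KOPTK1 at 28070 and then 13058 and 14150. The difference of log2 fold changes was -5.56 (SE 0.0662; limma treat, adjusted p = 1.94e-09). Its targeted libraries were lower than the control in all 3 lines, and the fall was deepest in HPB-ALL. TBC1D16 was at 1780 in the CUTLL1 control and 1950 and 1974 when targeted, and at 834 and then 576 and 655 in KOPTK1, so its near loss in HPB-ALL differed by -5.51 (limma treat, adjusted p = 1.96e-06). SOGA2 fell in HPB-ALL from 10228 and 9831 to 3735 and 3656, while in CUTLL1 it was at 122 and then 650 and 702.

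Genes with a higher value in HPB-ALL were led by CEP128, a centriole gene, at 1460.2 and 1529 in the controls and 1969 and 2112 when targeted, whose KOPTK1 values were 1362 in the control and 71.4 and 72.5 when targeted. The difference was 2.53 (limma treat, adjusted p = 2.12e-06), and CUTLL1, at 3458 and then 3565 and 3692, did not share the fall of KOPTK1. LRRC28 was at 977 and 955 in the controls and 1830.2 and 1822 when targeted, and in KOPTK1 at 4576 and then 1803 and 1769.9. RP11-1055B8.7, at 10087 and 9375 in the controls and 6024 and 5829 when targeted in HPB-ALL, was at 651 and then 18.4 and 17.1 in CUTLL1, a deeper fall, and at 13502 and then 10259 and 10316 in KOPTK1, a shallower one. Among list members, LCK fell further in HPB-ALL than in the other lines, by -1.22 on the log2 scale, whereas CD28 (a difference of 1.13) and IGLL1 (1.47) fell less and CD4 (0.93) was not called in HPB-ALL. CR2 differed by 1.12 from the mean of the other lines, with a log2 fold change of -1.61 in HPB-ALL beside -1.54 in KOPTK1 and -3.91 in CUTLL1. CD4 was at 2714 in the KOPTK1 control and 957 and 937 when targeted. HEXIM1 and GADD45A were higher when targeted in all 3 lines and by more in HPB-ALL, with differences of 0.91 and 1.67. FADS1 fell in HPB-ALL, and was at 8859 and then 7668 and 7807 in CUTLL1 and at 7049 and then 10589 and 10555 in KOPTK1. Only HPB-ALL and CUTLL1 expressed TOX2, which fell in HPB-ALL: CUTLL1 was at 2708 and then 3072 and 2829.9, and KOPTK1 at 1.94 and then 0 and 0. The other lines hardly expressed several of the genes that changed most in HPB-ALL, so those genes had little or no level in them from which to fall. IGHM was at 0 in all their guide libraries, CCR12P did not exceed 4.84, INHBE 3.90 and ATP9A 14.6, and PDZD2, which rose in HPB-ALL, did not exceed 1.23. From these low levels ATP9A went from 14.6 to 2.76 and 0.947 in CUTLL1, and CCR12P from 4.84 to 0 and 0 in KOPTK1.

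**Figure D5:**
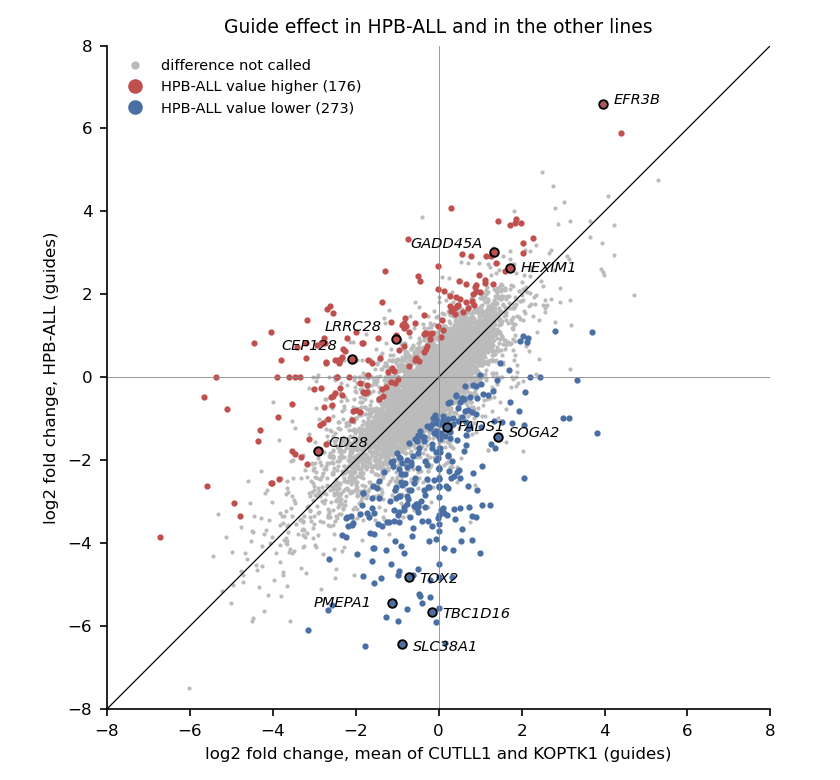
Log2 fold change with guides in HPB-ALL (vertical axis) against the mean of CUTLL1 and KOPTK1 (horizontal axis), 1 point per gene tested; coloured points are the 176 genes with a higher and the 273 with a lower value in HPB-ALL, and the diagonal marks equal change. SLC38A1 and TBC1D16 lie far below the diagonal, and CEP128 and EFR3B above it.

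The 2 targeted libraries differed from each other by more than 1.5-fold in 340 of the genes tested, beside 289 for the 2 controls and 5175 to 5204 for pairs across the groups. The 3 genes per direction that differed most between them, at a targeted mean of 100 or more, are given. RN7SL2, the RNA of the signal recognition particle, was at 159.9 and 221 in the controls and 474 and 751 when targeted, and RN7SK, the 7SK RNA to which HEXIM1 binds, at 85.9 and 106 in the controls and 115 and 217 when targeted. The interferon-induced gene GBP1 was at 402 and 426 in the controls and 75.8 and 131 when targeted. RPL18AP3, RP11-159C21.4 and a further entry known by clone name only were lower in targeted library 2 than in library 1, at 614 and 359, 424 and 263 and 376 and 221. These values are a description, with 1 library on each side. RN7SK was called higher, but its second control and first targeted library lay close, at 106 and 115. Its log2 fold change went from 0.72 to 0.27 without targeted library 2, where the call was lost. DESeq2 on recovered reads gave an adjusted p of 0.123. The call was also lost with no mean filter, robust moderation, no intensity trend or all 16 libraries (limma, adjusted p = 0.0802, 0.0951, 0.135 and 0.290). That of the unnamed clone entry was lost without targeted library 1 (limma, adjusted p = 0.493). RPL18AP3 was not called with all 4 libraries, was called lower at -0.45 without targeted library 1 and higher at 0.32 without targeted library 2. RP11-159C21.4 likewise moved from -0.36 to 0.33 between those fits, and was called lower at -0.26 without control library 2.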

How the data were processed

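Gene-level values came from 1 deposited table, whose unit is a signal, normalised read counts. In each of the 4 columns 100% of the values were whole multiples of 1 step (tolerance 1e-06), which gave the recovered reads. Per the submitters' processing notes, the tools were STAR (version 1.4.2) and DESeq2 and the build hg19, with no roles stated. The sources used here do not give the counter, the annotation or the use of strand, so antisense and overlapping genes cannot be told apart with certainty. Tests used log2(normalised count + 1) in limma 3.58.1 (R 4.3.3), empirical Bayes with an intensity trend, genes averaging at least 20 over the 4 libraries, and Benjamini-Hochberg adjusted p under 0.05. Such fold changes understate those of low genes. The difference between lines used limma treat with a 1.5-fold minimum on 10 guide libraries as 6 group means. Named genes were the 12 largest changes per direction among non-overlapping calls averaging at least 100 in the higher group (clone names left out), up to 4 called and 2 uncalled members per list, CXCR4 with its flanking genes, MYC, NOTCH1, TLX3, CD2, and 3 per direction for the difference between lines and between the targeted libraries. Some genes are not reported here. Other list members, and those in the closing section, were chosen after their values were seen. Members and lists were chosen with earlier results of these data known. Alternatives were pseudocount 5, no mean filter or 100, 2 other scalings, robust or untrended moderation, the replicate block, all 16 libraries in 1 fit, each HPB-ALL library left out, and edgeR 4.0.16 and DESeq2 1.42.0 on recovered reads. For the difference between lines each HPB-ALL or targeted library was left out in turn. Of these 8 fits MCTP2 was tested in 6 and NNMT in 7. The tests were also run on simulated data with a fixed spread and far fewer changed genes than were called here. Such data cannot show how reliable the present calls are. Promoters were RefSeq windows of 250 bases in GRCh38.p14, matched by symbol.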

Additional observations from a re-analysis of the deposited data

Results flagged for a closer look

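The guide effect in HPB-ALL differed from the mean of the effects in CUTLL1 and KOPTK1 in 449 genes, by a test of the difference itself (limma treat against a minimum of 1.5-fold). Each value below is the log2 fold change in HPB-ALL minus that mean, so that a positive value says that the gene rose more or fell less in HPB-ALL. The single guide controls of the other lines were assumed to vary like the replicated groups, and no fit left them out.

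SLC38A1, at -5.56, and TBC1D16, at -5.51, kept substantial levels in the other lines. The same held for TOX2 (-4.09) and SALL3 (-6.55) in CUTLL1. APBA2 (-4.83) fell in KOPTK1 as well, from 1986 to 345 and 296, and did not exceed 3.68 in CUTLL1. SOGA2 (-2.88) was higher when targeted in both other lines. FADS1 (-1.40) was higher in KOPTK1 and lower in CUTLL1, by less than in HPB-ALL. For IGHM (-5.56), INHBE (-5.84), ATP9A (-4.90), CCR12P (-4.50), NNMT (-5.09), MCTP2 (-5.04) and PDZD2 (3.79) the other lines were at or near 0, and these values mostly restate the HPB-ALL change. LRRC14B (-2.96) was also low in them, as were CTD-2083E4.7 (-4.72) and CDH1 (-2.97).

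Genes that were lower in HPB-ALL by this measure included AARD (-2.95), IFIT3 (-2.10), SLC7A11 (-1.81), ITGAL (-1.48), LCK (-1.22), IKZF2 (-1.05), SELPLG (-0.97) and AEN (-0.81), all of which fell further in HPB-ALL. ACSL1 (-1.29), IL10RA (-1.20) and CDKN1A (-1.05) rose in HPB-ALL by less than the mean of the other lines, with ACSL1 and CDKN1A close to their rise in KOPTK1.

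Genes with a higher value were EFR3B (2.62), CEP128 (2.53), REEP6 (2.34), RP11-1055B8.7 (2.04), LRRC28 (1.95), THEMIS2 (1.95), FAM222A (1.89), NDRG1 (1.82), GADD45A (1.67) and HEXIM1 (0.91). IGLL1 (1.47), CD28 (1.13) and CD4 (0.93) were lower when targeted in both other lines by more than in HPB-ALL. For CR2 (1.12) and RP11-1055B8.7 this held in CUTLL1 and not in KOPTK1. Leaving out 1 library ended the call of 12 of these 42 differences in at least 1 fit. They were AARD, AEN, APBA2, ATP9A, CDH1, CDKN1A, IKZF2, IL10RA, LRRC14B, REEP6, SELPLG and THEMIS2. The highest adjusted p per gene ran from 0.0613 for REEP6, without HPB-ALL targeted library 1, to 0.169 for CDH1, without HPB-ALL control library 1 (limma treat).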

How the results depend on the processing

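The counts of 5006 higher and 5476 lower genes stayed within 1.5 times under every alternative, from 4465 to 5910 higher and from 4579 to 6084 lower. Leaving out each HPB-ALL library gave 4724 to 4853 higher and 5030 to 5485 lower, with the lone library of a group assumed to vary like the other. On recovered reads edgeR called 5222 and 5336, and DESeq2 4703 and 4814. Quantile scaling moved the share of calls that were higher from 47.8% to 55.5%. The replicate block gave 5132 and 5590 calls, and 411 for the difference between lines. The numbers are not shown to pair the libraries: the deviations of same-numbered libraries correlated at 0.0416 over 13453 genes, with 2 pairs. The difference between lines rose from 449 to 5012 genes with no minimum difference, which by construction admits small ones, and ran from 302 to 488 with 1 library left out. Of 173 genes named with a test, 164 were called, and 0 of those changed sign under these alternatives, while 7 lost the call in at least 1. Apart from those given in the report these were KRT8, with all 16 libraries in the fit (adjusted p = 0.175 in limma), and MAX, without control library 2 (adjusted p = 0.349 in limma) and in 3 other fits. Where no cause is given it was not tested. Among the named genes that were not called, CD4, RP11-159C21.4 and RPL18AP3 changed sign. CD4 stayed near 0, while RP11-159C21.4 and RPL18AP3 moved further from it when 1 library was left out. Under median-of-ratios scaling CD4 was at 0.00619 and RP11-159C21.4 at 0.0386. Quantile scaling put RP11-159C21.4 at 0.27 and RPL18AP3 at 0.15. For the latter pair edgeR gave 0.0537 and 0.0143 and DESeq2 0.0331 and 0.00860. Leaving out 1 library gave -0.36 to 0.33 for RP11-159C21.4 and -0.45 to 0.32 for RPL18AP3, all as log2 fold changes. Depth limits the low genes: fold changes of genes near 0 in a group depend on the pseudocount.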

Other observations

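Some genes went from clear expression to almost none, or the reverse. In 12 genes both controls were at 100 or more and both targeted libraries at 5 or lower, and in 3 genes both targeted libraries were at 100 or more and both controls at 10 or lower; the entries not described above were chosen after their values were seen. The entry RP5-1028K7.2 was at 645 and 687 in the controls and 3.19 and 2.31 when targeted, the highest control level among the 12, and CTD-2083E4.7 at 352 and 331 in the controls and no more than 4.61 when targeted. Both are known by clone name only. PLCH1, a phospholipase C gene, was at 115 and 111 in the controls and 3.99 and 0.769 when targeted, MCTP2 at 102 and 109 in the controls and 2.39 and 0.769 when targeted, and NNMT, the nicotinamide N-methyltransferase, at 137 and 182 in the controls and 2.39 and 3.84 when targeted. ZNF683, the transcription factor Hobit of tissue-resident lymphocytes, was at 114 and 127 in the controls and 3.99 and 3.84 when targeted. In the other direction stood EFR3B, C14orf37 and an entry known by clone name only, at 6.61 and 6.67 in the controls and 456 and 445 when targeted.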
